A study of Mus musculus with 4 samples.

Results

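Glucose entry and glycolysis in CD11b+ splenocytes were followed through 10 of the 27998 genes in the count table. They were Slc2a1, which encodes the glucose transporter GLUT1, and the enzyme genes Hk2, Hk3, Pfkl, Aldoa, Tpi1, Gapdh, Pgk1, Pkm and Ldha. They were listed by name, with earlier results of these data known. All 10 were detected, with totals from 956 molecules for Pgk1 to 47464 for Gapdh over 11631 cells. The study sorted CD11b+ cells from the spleens of C57BL/6 mice aged 8 to 12 weeks and profiled them by CITE-seq, which reads RNA and antibody tags of surface proteins from the same single cells. One library came from untreated mice in the steady state. The other, GM-conditioned, came from mice given 3 once-daily injections of 10 µg of GM-CSF, a cytokine that drives the growth of myeloid cells, with spleens taken 24 h after the last. Each condition was 1 library aimed at 7000 cells, and the number of mice behind each was not given in the sources used here.

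Glycolysis splits glucose into pyruvate in the cytosol and yields ATP without oxygen. Neutrophils hold few mitochondria and rely on it heavily. Monocytes, macrophages and dendritic cells (DCs) use more of it when they are activated or divide, and the same sugar feeds the pentose phosphate pathway, which supplies NADPH and ribose. Several genes of the pathway are classical targets of the hypoxia factor HIF-1 and of Myc.

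Promoters are shown for the 5 genes with the largest median differences between the libraries over the clusters described below, Aldoa, Gapdh and Ldha (higher in the GM-conditioned library) and Hk2 and Hk3 (lower). Each sequence is 300 bases, 250 before a RefSeq start and 50 after it, on GRCm38.p6 and written on the strand of the gene. All 10 genes were found in the RefSeq table, with 14 starts. Capitals mark the HIF core motif, ACGTG on either strand (CACGT when it lies on the other strand), which overlaps the E-box CACGTG, the letters bound by Myc and its relatives.
Hk2 (chr6:82774405-82774704, minus strand): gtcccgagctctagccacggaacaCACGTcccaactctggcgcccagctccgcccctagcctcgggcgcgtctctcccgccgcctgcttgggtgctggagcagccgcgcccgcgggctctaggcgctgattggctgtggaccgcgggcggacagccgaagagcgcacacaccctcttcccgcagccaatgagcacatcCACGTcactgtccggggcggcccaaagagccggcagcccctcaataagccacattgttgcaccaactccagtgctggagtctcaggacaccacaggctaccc
Hk3 (chr13:55021336-55021635, minus strand): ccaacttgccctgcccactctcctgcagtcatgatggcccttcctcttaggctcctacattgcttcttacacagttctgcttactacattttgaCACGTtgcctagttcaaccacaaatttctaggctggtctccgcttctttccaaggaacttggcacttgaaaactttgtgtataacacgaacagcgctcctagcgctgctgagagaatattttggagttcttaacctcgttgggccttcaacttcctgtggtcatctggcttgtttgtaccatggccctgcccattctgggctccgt
Aldoa (chr7:126799205-126799504, minus strand, 1 of 3 starts): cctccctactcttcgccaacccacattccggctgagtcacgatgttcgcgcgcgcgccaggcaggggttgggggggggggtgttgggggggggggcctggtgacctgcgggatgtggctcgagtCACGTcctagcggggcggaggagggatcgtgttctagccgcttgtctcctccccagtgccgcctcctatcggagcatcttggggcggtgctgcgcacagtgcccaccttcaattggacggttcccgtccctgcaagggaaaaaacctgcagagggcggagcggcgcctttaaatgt
Gapdh (chr6:125165724-125166023, minus strand): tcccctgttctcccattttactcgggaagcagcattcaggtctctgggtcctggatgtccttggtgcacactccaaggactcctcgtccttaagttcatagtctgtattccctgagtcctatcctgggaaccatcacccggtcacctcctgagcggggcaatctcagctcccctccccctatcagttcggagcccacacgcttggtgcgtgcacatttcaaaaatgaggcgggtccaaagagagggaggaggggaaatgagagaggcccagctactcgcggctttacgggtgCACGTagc
Ldha (chr7:46845554-46845853, plus strand, 1 of 2 starts): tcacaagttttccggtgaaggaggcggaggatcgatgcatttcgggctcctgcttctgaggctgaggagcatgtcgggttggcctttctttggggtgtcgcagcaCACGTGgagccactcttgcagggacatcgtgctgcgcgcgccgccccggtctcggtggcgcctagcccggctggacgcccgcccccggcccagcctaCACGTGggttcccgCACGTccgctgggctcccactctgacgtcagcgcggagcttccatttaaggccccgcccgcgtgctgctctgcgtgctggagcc
The HIF core stood in 9 of the 14 promoters, belonging to 8 of the 10 genes, against 19.6% of 32851 promoters of all genes. The E-box stood in 1 of the 14 (Ldha, at 2 places) against 7.15% of all. The GC box GGGCGG, searched on both strands, stood in 9 of the 14 against 35.7%. Among the Aldoa windows 2 overlap and hold the same HIF core and GC box matches, which count in both. The shares of all are per promoter and not per gene. Genes on both sides of the comparison held the HIF core, Hk2 with 2 matches and Hk3 with 1. Ldha had 5 in the window shown, where each E-box counts on both strands. The other Ldha window (chr7:46846832-46847131) and the Aldoa window at chr7:126800398-126800697, which are not shown, held none of these motifs. A match describes the letters of the window and is not a binding site.

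The steady-state library held 4827 cells and 22358903 unique molecular identifiers (UMIs, each counting 1 captured RNA molecule), with a median of 3371 per cell. The GM-conditioned library held 6804 cells and 35007567 UMIs, with a median of 4916. Levels are UMIs of a gene per 1000000 UMIs of a group of cells (CPM), with exact Poisson intervals at 95%. With 1 library per condition there was no test between conditions, intervals cover counting error only, and the effect of GM-CSF and a difference between the libraries cannot be told apart. More RNA of a gene and less of the others cannot be told apart on this scale either. Of the cell barcodes, 8 occurred in both libraries. Gapdh, Aldoa, Pgk1 and Ldha each have 2 named pseudogenes in the GRCm38 annotation, and Aldoa has 2 gene records there, so their counts are uncertain where reads match a copy. The deposited labels were kept and checked against marker genes: 9 neutrophil genes summed to 101684 and 100718 CPM in granulocytes (steady state and GM-conditioned, the order used throughout) and to 365747 and 296691 CPM in neutrophils, and 5 B cell genes to 6421 and 6091 CPM in B cells. The label cDC2-A went against its name, with 18085 and 18923 CPM of natural killer (NK) cell genes beside 228 and 207 CPM of DC genes. Itgam, the gene of CD11b used in the sort, was detected in 68.7% and 59.5% of cells. The study called 5 of the labels together MoMacDC cells, or the Focus bundle (2135 and 3940 cells): progenitor DCs and MoMacDC_c1, c2, c4 and c5, which it describes as holding mixed features of monocytes, macrophages and DCs. The labels macrophage, activated DC and cDC2-A lie outside it. These cells have 17 clusters, and their CD115hi subsets were gated on antibody tags: P-I carries Ly6C, P-III carries MHC II but neither Ly6C nor CD301b, and P-IV is the CD301b-positive subset.

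Among the cell labels, neutrophils carried the highest summed level of the 10 genes. The 10 genes together reached 3008 CPM (2906 to 3112) in steady-state neutrophils and 3901 CPM (3846 to 3956) in GM-conditioned ones. Granulocytes followed with 2479 and 2865 CPM. MoMacDC cells stood at 1637 and 2097 CPM and progenitor DCs at 1245 and 1770 CPM. In progenitor DCs Gapdh alone made 41% and 53.7% of the sum, which without it was 735 and 820 CPM. B cells had 1118 and 1072 CPM and T cells 957 and 1142 CPM, with intervals that overlap between the libraries in both. Counted per cell, granulocytes lay near B cells: they carried 4.72 and 3.86 UMIs of the 10 genes, B cells 5 and 3.41 and neutrophils 22.5 and 21.6. The plot of levels by cell label shows each gene on its own.

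**Figure D1:**
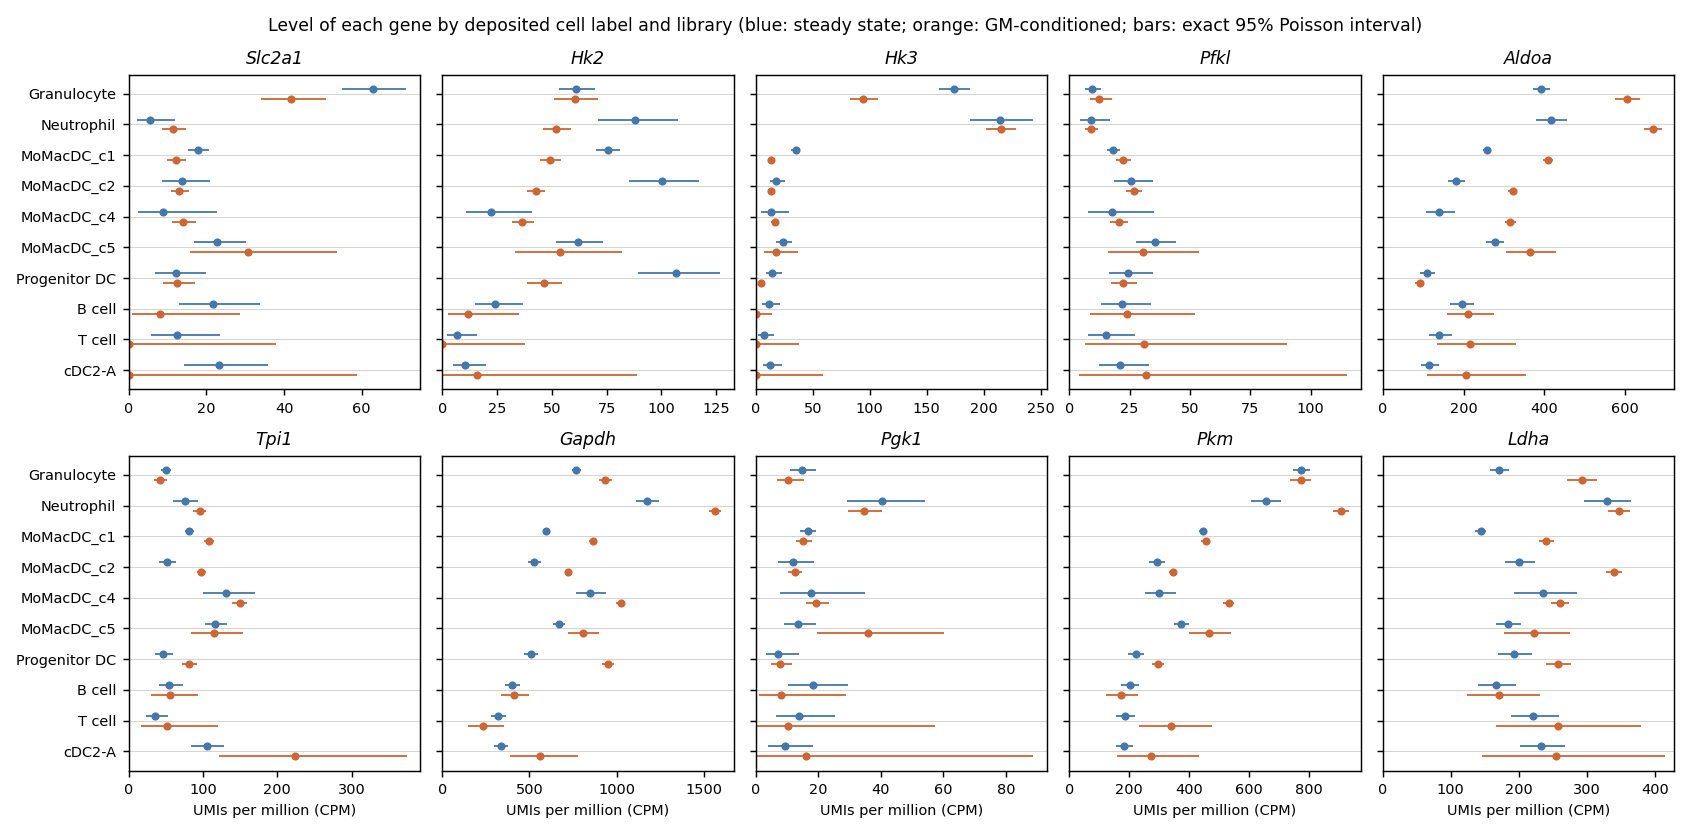
Level of each of the 10 genes (CPM, linear axis from 0) in deposited cell labels, steady state in blue and GM-conditioned in orange, with exact 95% Poisson intervals for counting error. Hk3 stands out in granulocytes and neutrophils (174 and 214 CPM in the steady state), Slc2a1 in granulocytes, and Aldoa is lowest in progenitor DCs.

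The transporter genes differed between cell labels, of which granulocytes and neutrophils both carried neutrophil genes, as given above. Slc2a1 was highest in granulocytes, at 62.9 CPM (55 to 71.5) in the steady state and 41.9 CPM (34.1 to 50.9) in the GM-conditioned library. Neutrophils had 5.5 and 11.3 CPM, from 6 and 56 UMIs, so granulocytes stood above them by 10.6 and 3.67 times. MoMacDC cells lay between with 17.3 and 13.1 CPM, a GM-conditioned to steady-state ratio of 0.756 (95% interval 0.643 to 0.891). Slc2a3, the gene of the high-affinity transporter GLUT3, was at 480 and 228 CPM in granulocytes and 245 and 231 CPM in neutrophils. In MoMacDC cells Slc2a3 was at 24.6 and 9.16 CPM, a ratio of 0.372 (0.315 to 0.438). Of the UMIs of both transporters, Slc2a1 therefore made 41.3% (37.4 to 45.3) in steady-state MoMacDC cells and 58.9% (54.8 to 62.8) in GM-conditioned ones, against 11.6% and 15.5% in granulocytes.

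The hexokinases, which trap glucose in the cell as glucose 6-phosphate, divided the cells in another way. Hk3, a hexokinase of myeloid cells, reached 174 CPM (161 to 188) in steady-state granulocytes and 94.5 CPM (82.6 to 108) in GM-conditioned ones. Neutrophils had 214 CPM (188 to 244) and 215 CPM (202 to 228), which overlap. MoMacDC cells had 29.3 and 13.2 CPM. B and T cells, which should lack the gene, had 11.4 and 6.88 CPM in the steady state and 0 UMIs in the GM-conditioned library, which at a limit of 3 counts allows up to 12 and 30.9 CPM. The 13.2 CPM of GM-conditioned MoMacDC cells lay near the level of steady-state B cells. It stood above the limit of 12 CPM in B cells of the same library. Neutrophil genes stood at 3144 and 801 CPM in B cells, and their part in these levels was not tested. The share of cells with an Hk3 UMI was 70.5% in steady-state neutrophils and 27.3% in granulocytes, and 17.1% and 15.4% once every cell was thinned to 1000 UMIs, against 1.58% of B cells; median depths before thinning were 6462, 1770 and 2977 UMIs.

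Hk2, the inducible hexokinase that binds mitochondria, was spread more evenly. In the steady state it was highest in progenitor DCs (107 CPM), MoMacDC_c2 (100 CPM) and neutrophils (88 CPM), and the same labels had 46.3, 42.6 and 52.1 CPM in the GM-conditioned library. Granulocytes did not share that difference, at 61.2 and 60.5 CPM. Hk1, the widespread isoenzyme, was at 27.6 and 24.9 CPM in MoMacDC cells (ratio 0.903, 0.798 to 1.02). Set beside each other, Hk3 made 74% (70.9 to 76.9) of the UMIs of Hk3 and Hk2 in steady-state granulocytes and 70.9% (65.7 to 75.8) in neutrophils, which overlap. In the GM-conditioned library the same shares were 61% (55.8 to 65.9) and 80.5% (78.3 to 82.6), which do not. In MoMacDC cells the share was 27.5% and 23.1%, and in progenitor DCs 12% and 8.61%. Clusters 11 and 15 of the MoMacDC cells had the highest GM-conditioned Hk3 shares, 47.3% and 71.9%. The same clusters carried neutrophil genes at 32541 and 158634 CPM, whose part in these shares was not tested.

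**Figure D2:**
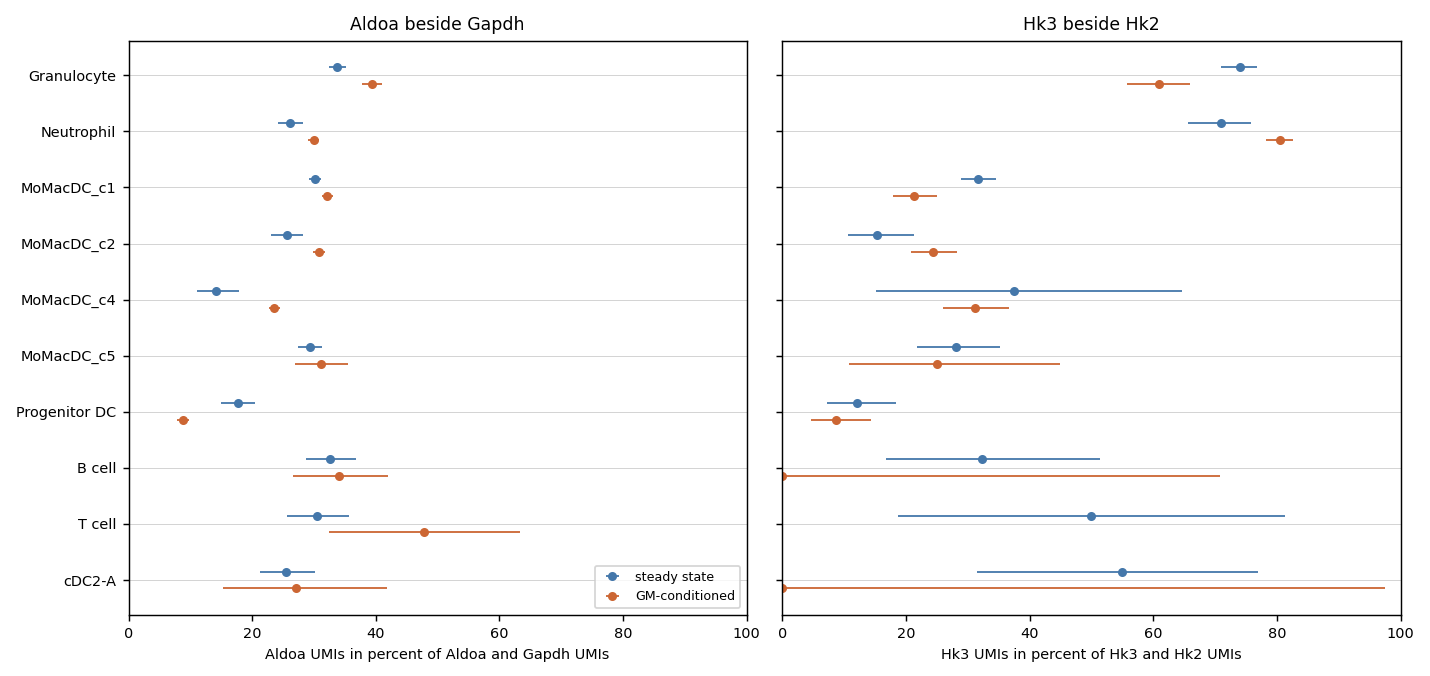
Share of 1 gene in the UMIs of a pair, in percent from 0 to 100, by cell label and library (steady state in blue, GM-conditioned in orange), with exact 95% binomial intervals. Progenitor DCs of the GM-conditioned library have the lowest share of Aldoa beside Gapdh (8.76%), and Hk3 outweighs Hk2 in granulocytes and neutrophils of both libraries.

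Pfkl, the liver type subunit of phosphofructokinase, which commits sugar to glycolysis, was low in every label with at least 50 cells, from 8.91 CPM in GM-conditioned neutrophils to 35.3 CPM in steady-state MoMacDC_c5. Its ratio between the libraries was 1.07 (0.934 to 1.22) in MoMacDC cells, while the platelet type subunit Pfkp stood there at 56.4 and 88.9 CPM, a ratio of 1.57 (1.46 to 1.71). Aldoa, the aldolase that cuts the sugar into trioses, was at 392 and 606 CPM in granulocytes, 416 and 668 CPM in neutrophils and 236 and 324 CPM in MoMacDC cells. Its ratios were 1.54 (1.43 to 1.66), 1.6 (1.46 to 1.78) and 1.37 (1.32 to 1.42). Progenitor DCs were apart, with 109 CPM (91.6 to 129) and 91.3 CPM (80.7 to 103). As their Gapdh stood at 511 and 950 CPM, Aldoa made 17.6% (15 to 20.5) and 8.76% (7.79 to 9.81) of the UMIs of both genes, where MoMacDC cells as a whole had 28.3% and 27.4%. The lowest share of the clusters with at least 20 cells was 6.67% (5.52 to 7.98), in GM-conditioned cluster 12, whose cells were all in S or G2M phase. Tpi1, which interconverts the triose phosphates, was at 82.1 and 110 CPM in MoMacDC cells, 49.8 and 42.3 CPM in granulocytes and 75.1 and 95.4 CPM in neutrophils.

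Gapdh, the oxidising step that makes NADH, was higher in the GM-conditioned library in the main myeloid labels. It was at 770 and 934 CPM in granulocytes (ratio 1.21, 1.15 to 1.28), 1176 and 1564 CPM in neutrophils (1.33, 1.25 to 1.41) and 599 and 858 CPM in MoMacDC cells (1.43, 1.4 to 1.47). B cells had 403 and 410 CPM, with overlapping intervals. The gene is often used as a constant reference. Here its level ran from 237 CPM in GM-conditioned T cells, from only 23 UMIs in 39 cells, to 1564 CPM in GM-conditioned neutrophils. Pgk1, the first step that yields ATP, was sparse at 14.9 and 14.6 CPM in MoMacDC cells, and among labels with at least 50 cells it was highest in steady-state neutrophils, at 40.3 CPM. Of the steps that follow, the mutase Pgam1 stood at 144 and 195 CPM and the enolase Eno1 at 230 and 175 CPM in MoMacDC cells. Their ratios of 1.36 (1.29 to 1.43) and 0.759 (0.726 to 0.793) lay on opposite sides of 1.

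Pkm, pyruvate kinase of muscle type, whose PKM1 and PKM2 transcripts a gene count does not separate, was at 774 and 771 CPM in granulocytes, 654 and 905 CPM in neutrophils and 396 and 416 CPM in MoMacDC cells. The ratios were 0.996 (0.939 to 1.06), 1.38 (1.28 to 1.5) and 1.05 (1.02 to 1.08). Ldha, the lactate dehydrogenase subunit that favours turning pyruvate into lactate, stood at 171 and 292 CPM in granulocytes (ratio 1.7, 1.53 to 1.9) and 162 and 281 CPM in MoMacDC cells (1.73, 1.65 to 1.81), but at 329 and 347 CPM in neutrophils (1.05, 0.94 to 1.18). Ldhb, the subunit that favours the reverse reaction, went the other way in MoMacDC cells, at 20.1 and 4.36 CPM. It made 11% (9.84 to 12.2) of the UMIs of both subunits in the steady state and 1.53% (1.27 to 1.83) in the GM-conditioned library. In P-I cells alone the share was 17.8% (12.9 to 23.7) and 3.65% (1.96 to 6.16). Beside Pkm, Ldha made 29.1% (28.1 to 30.1) and 40.3% (39.6 to 41) of the UMIs of both genes in MoMacDC cells.

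Between the libraries the 10 genes did not move as a block in any population compared. A gene was called when its CPM differed by 1.5-fold or more (after adding 0.5 to both UMI sums) and the groups together held 50 UMIs of it. In granulocytes 2 of the 10 genes were called higher in the GM-conditioned library (Aldoa and Ldha), with 19.8% of all 6257 genes tested, and 1 lower (Hk3, ratio 0.544, 0.465 to 0.633), with 8.58% of all. Slc2a1 lay just short of the limit at 0.668 (0.522 to 0.845). In neutrophils 2 were higher (Aldoa, and Slc2a1 at 1.92 with an interval of 0.891 to 5.86), against 10.7% of genes, and 1 was lower (Hk2, 0.59, 0.466 to 0.756), against 10.7%. With each cell thinned to 1000 UMIs Slc2a1 turned (log2 ratio -0.39 against 0.94), and 1 gene was called higher and 0 lower. Hk2 also lost its call when every cell was weighted equally. In MoMacDC cells Ldha was higher, against 16.3% of 10860 genes, and Hk2 (0.57, 0.525 to 0.619) and Hk3 (0.451, 0.391 to 0.52) were lower, against 18.8%. The summed level of the 10 genes was 1.16, 1.3, 1.28 and 1.37 times the steady-state value in granulocytes, neutrophils, MoMacDC cells and P-I cells, while the median ratio of all genes tested was 1.08, 0.963, 0.959 and 0.933. The median ratio of the members tested was 0.993, 1.15, 1.06 and 1.38. With Gapdh left out, the ratio of the sum was 1.13, 1.28, 1.19 and 1.29 in the same order.

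In P-I cells, 8 of the 10 genes were tested between the libraries. Of these, Aldoa (1.83, 1.58 to 2.13), Gapdh (1.5, 1.37 to 1.65) and Ldha (1.53, 1.28 to 1.85) were called higher, against 12.2% of genes. Hk3 was called lower (0.511, 0.282 to 0.892), against 19.1%, from 34 and 22 UMIs. Its direction turned with cells thinned to 1000 UMIs (log2 ratio 0.73 against -0.97), and the call was lost without called doublets and without clusters 11, 14 and 15, where fewer than 50 UMIs were left. The same P-I cells differed between the libraries in classical monocyte genes (2536 and 977 CPM), non-classical monocyte genes (969 and 293 CPM), cells labelled S or G2M (28.8 and 40.6%) and the share of ribosomal protein genes (16.1 and 20.3% of UMIs). The median mitochondrial share of UMIs was higher in the GM-conditioned library in each population compared, at 0.315 and 0.519% in granulocytes, 1.14 and 1.83% in neutrophils, 3.4 and 4.54% in MoMacDC cells and 3.68 and 5.22% in P-I cells. The part of these shifts in the ratios was not tested. In G1 cells alone 2 genes were called higher in P-I, and without clusters 11, 14 and 15 the count was 3.

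Counted per cell instead of per total, 0 of the 10 genes were called higher and 4 lower in granulocytes, with 5.74% of all genes higher and 34.4% lower. In neutrophils 0 were higher and 2 lower, with 3.5% and 40.7% of all. In P-I cells 1 was higher and 1 lower, with 10.1% and 22.9% of all. The median log2 ratio of all genes on that scale was -0.39, -0.49 and -0.18. Cells of the granulocyte and neutrophil labels held fewer UMIs in the GM-conditioned library, with medians of 1229 against 1770 and 4404 against 6462.

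The makeup of the MoMacDC cells differed between the libraries. The 4 classical monocyte genes summed to 2048 and 625 CPM, the 5 non-classical monocyte genes to 1279 and 162 CPM and the 4 DC genes to 275 and 500 CPM. Cells in S or G2M phase made 24% and 36%, and ribosomal protein genes took 16.6% and 20.2% of UMIs. Their part in the ratios over all MoMacDC cells was not tested. Within the 12 clusters with at least 20 cells in each library, the summed level was higher in the GM-conditioned library in 12, with ratios from 1.1 to 1.85 and an interval above 1 in 10. Gapdh was higher in 12 of 12 (median ratio 1.49), Aldoa and Ldha in 11 of 12 each (1.67 and 1.52), Pkm in 10 of 12 (1.23) and Tpi1 in 10 of the 11 where it was tested (1.25). Hk2 was lower in 9 of 11 (0.567) and Hk3 in 6 of 6 (0.538). The highest Hk2 ratio, 2.08 (0.954 to 7.16), was that of cluster 8. Clusters 7 and 8 are among the 12, and their 31 and 28 steady-state cells held NK cell genes at 4898 and 11449 CPM. Their GM-conditioned cells held 0.324 and 0.273 CPM, and the part of this difference in the counts above was not tested. Slc2a1, Pfkl and Pgk1, tested in 6, 9 and 5 clusters, lay on both sides of 1. The clusters come from the same libraries and are not replicates of the treatment.

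**Figure D3:**
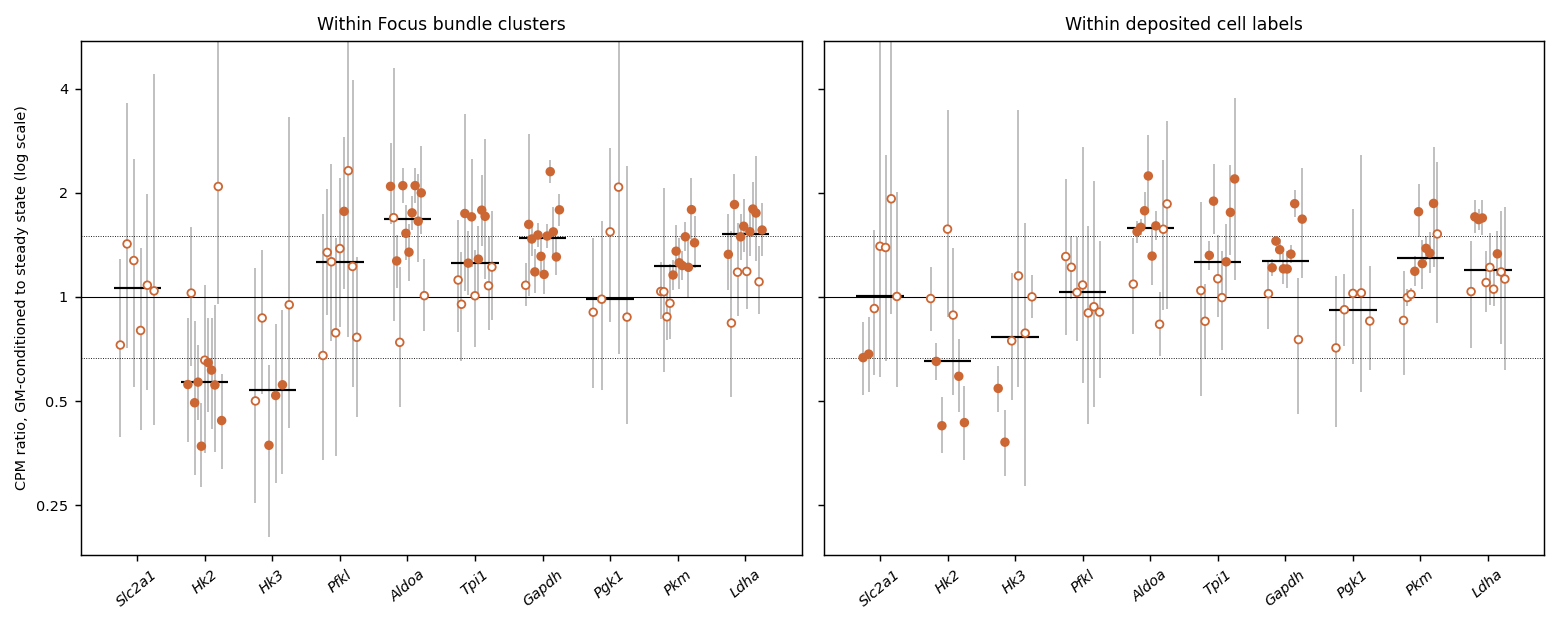
CPM ratio of each gene, GM-conditioned to steady state (log scale), within clusters and within cell labels, with intervals for counting error, a black bar at the median, filled points where the interval leaves out 1 and dotted lines at 1.5 and its inverse; intervals past the axis are clipped. Aldoa, Gapdh and Ldha lie mostly above 1 (cluster medians 1.67, 1.49 and 1.52), Hk2 and Hk3 mostly below it.

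Cluster 6 had the highest ratio of the sum. Its 10 genes reached 1843 CPM (1787 to 1900) in 297 steady-state cells and 3416 CPM (3294 to 3541) in 108 GM-conditioned cells, with Gapdh at 645 and 1485 CPM, Aldoa at 302 and 632 CPM and Tpi1 at 80.1 and 142 CPM. Hk2 went against them, at 72.3 and 44 CPM. Among GM-conditioned clusters with at least 20 cells, it had the highest sum of classical monocyte genes, 1908 CPM. In its steady-state cells these genes stood at 4685 CPM. Its neutrophil genes stood at 368 and 3931 CPM, and ribosomal protein genes took 17% and 21.1% of its UMIs. The part of these differences in the ratio was not tested. Cluster 9 had Gapdh at 478 and 855 CPM and Hk2 at 106 and 46.4 CPM, while its Aldoa was at 118 and 119 CPM.

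Along the CD115hi subsets of the GM-conditioned library, the pathway total was highest in P-I, at 2353 CPM (2273 to 2435), and stood at 2038 and 2034 CPM in P-III and in P-IV, whose intervals overlap. Neutrophil genes stood at 3793 CPM in P-I against 251 and 241 CPM. Without clusters 11, 14 and 15, which held 13 of the P-I cells and none of P-III and P-IV, they were at 380 CPM in P-I and the pathway total there was 2336 CPM (2254 to 2421). Aldoa had 425 CPM in P-I against 319 and 300 CPM, Gapdh 944 against 776 and 780 CPM, and Pkm 499 against 387 and 382 CPM. Without those clusters P-I had 419, 944 and 492 CPM of these genes. Ldha went the other way, with 246 CPM (221 to 273), 296 CPM (258 to 338) and 350 CPM (326 to 375). The share of Ldha in the UMIs of Ldha and Pkm was 33% (30.2 to 36) in P-I, 43.4% (39 to 47.8) in P-III and 47.8% (45.4 to 50.3) in P-IV, of which the last 2 overlap. At the limit of 1.5-fold, 1 of 7 genes tested was called in P-III against P-I, Pgk1 (0.612, 0.283 to 1.16, lower), against 7.64% of all genes lower and 7.09% higher. Thinning turned Pgk1 (log2 ratio 0.56 against -0.71), and its call was lost with equal weight of cells. The call rested on 12 P-III molecules beside 38 from P-I, which met the minimum of 50 without a margin. It was also lost without called doublets, without clusters 11, 14 and 15 and in G1 cells, where only 6 genes were tested. Those losses do not show a smaller difference. Leaving out the clusters moved Pgk1 from 27.2 to 28.6 CPM in P-I, while P-III stayed at 16.2 CPM. In P-IV against P-III 1 of 7 genes tested was called, Hk2 (0.645, 0.434 to 0.986, lower), against 5.87% lower and 7.19% higher. That call was lost with thinned cells, in G1 cells and counted per cell. Pfkp stood at 63.1, 103 and 131 CPM from P-I to P-IV. Counted per cell, 1.47% of genes were higher and 23.9% lower in P-III against P-I, and 19.7% and 1.61% in P-IV against P-III, with median depths of 7232, 5866 and 6883 UMIs.

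**Figure D4:**
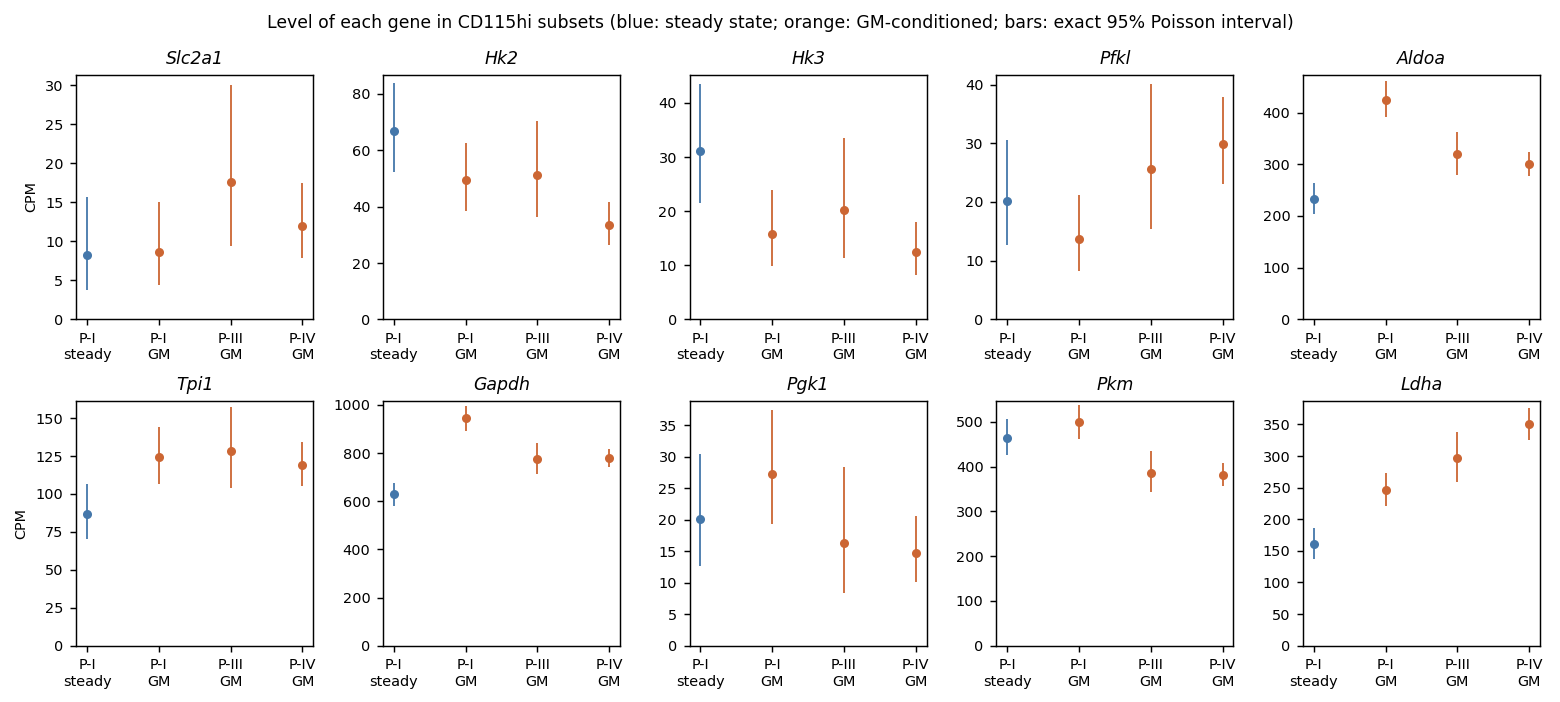
Level of each of the 10 genes (CPM, linear axis from 0) by CD115hi subset, steady-state cells in blue and GM-conditioned cells in orange, with exact 95% Poisson intervals. Ldha is higher in P-IV (350 CPM) than in P-I (246 CPM) of the GM-conditioned library, while Aldoa, Gapdh and Pkm are highest in its P-I.

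Cells labelled S or G2M took 40.6% of P-I against 31.7% (P-III) and 31% (P-IV), while the 4 cycling genes stood at 538, 318 and 523 CPM, so the labels and these genes did not give the same order. The subsets were also compared within a phase label. Between P-IV and P-I, Aldoa had a ratio of 0.783 in G1, 0.543 in S and 0.481 in G2M, and Gapdh of 0.848, 0.771 and 0.831, each with an interval below 1. Ldha had 1.58 (1.33 to 1.87) in G1 and 1.81 (1.31 to 2.57) in S, but 0.762 (0.565 to 1.02) in G2M.

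Cells labelled S or G2M did not carry any of the 10 genes 1.5-fold above or below cells labelled G1. In the steady state 0 were called either way, against 7.79% of all genes higher and 3.88% lower, and in the GM-conditioned library 0, against 10.5% and 8.16%. With thinned cells 1 gene was called higher in the GM-conditioned library. Other cell types' genes moved with the labels. In the steady state NK cell genes stood at 4.12 CPM in G1, 355 in S and 3930 in G2M, and their part in the ratios was not tested. In the GM-conditioned library neutrophil genes stood at 4899, 1224 and 1974 CPM. Without clusters 11, 14 and 15 the counts called were 0 higher and 0 lower. Smaller differences had narrow intervals. In the GM-conditioned library Gapdh was at 763 CPM in G1 and 991 CPM in S and G2M (ratio 1.3, 1.27 to 1.33), Tpi1 at 98.2 and 128 CPM (1.3, 1.21 to 1.4) and Pkm at 379 and 469 CPM (1.24, 1.19 to 1.29). Aldoa went the other way, at 349 and 288 CPM (0.827, 0.791 to 0.863), and so did Ldha, at 291 and 265 CPM (0.912, 0.87 to 0.955). In the steady state the ratio of Gapdh was 1.15 (1.1 to 1.21) and that of Aldoa 0.969 (0.895 to 1.05). Within clusters, over which phases are unevenly spread, the median ratio of the sum was 0.988 over 4 steady-state and 1.03 over 9 GM-conditioned clusters. Single genes also had smaller differences within GM-conditioned clusters, with median ratios of 1.14 for Gapdh, 1.04 for Tpi1 and 1.07 for Pkm. Aldoa (0.998) and Ldha (1.01) lay above 1 in 4 and 5 of 9 clusters, so their lower level did not hold within most clusters. The part of cluster makeup in the ratios over all cells was not tested. Tubb5, a tubulin gene listed for comparison as a housekeeping gene beside Actb, B2m and Eef1a1, had ratios of 3.97 and 4.07. The ratios of those other genes are not given here. Counted per cell, 3 of the 10 were called higher in the GM-conditioned library, with 22% of all genes higher and 2.7% lower.

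Clusters 7 and 8 of the GM-conditioned library, where 86.5% and 100% of cells were in S or G2M, had Tpi1 at 147 CPM, Gapdh at 1034 CPM and Pkm at 524 CPM. Clusters 0, 1, 3, 5 and 10 together had 100, 709 and 359 CPM, ratios of 1.46 (1.34 to 1.59), 1.46 (1.41 to 1.5) and 1.46 (1.4 to 1.52). Pgk1 was the gene called, at 19.7 and 12.1 CPM (1.63, 1.28 to 2.06), 1 of 10 against 13.1% of all genes higher. None of the 10 was called lower, where 13.4% of all genes were. Ldha had a ratio of 0.865 (0.818 to 0.915) and Aldoa of 0.943 (0.895 to 0.993). Counted per cell, 6 were called higher, with 49.5% of all genes higher and 2.61% lower.

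Steady-state cluster 4, which carried non-classical monocyte genes at 3962 CPM, differed from cluster 5, with classical monocyte genes at 2948 CPM, in single enzymes, while the totals were 1730 and 1767 CPM (ratio 0.979, 0.938 to 1.02). Pfkl was higher in cluster 4, 33.5 against 18.2 CPM (1.84, 1.28 to 2.65), and Hk3 lower, 19.6 against 35.2 CPM (0.562, 0.376 to 0.808), 1 gene each way against 16% and 12.7% of all genes. With thinned cells 0 of the 10 genes were called higher and 2 lower. Short of the limit, Tpi1 had a ratio of 1.43 (1.2 to 1.7) and Pkm of 0.735 (0.67 to 0.804). Counted per cell, 0 of the 10 were called higher and 8 lower, with 2.74% and 66.2% of all genes, and the median depth was 3636 UMIs in cluster 4 and 7494 in cluster 5.

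Between neutrophils and granulocytes, Tpi1, Gapdh, Pgk1 and Slc2a1 were called in the same direction in both libraries. The cells labelled neutrophils carried 4 cycling genes at 585 and 545 CPM against 13.9 and 14.1 CPM in granulocytes. In the steady state 4 of 9 genes tested were called higher in neutrophils, Tpi1 (1.51, 1.15 to 1.97), Gapdh (1.53, 1.43 to 1.63), Pgk1 (2.75, 1.8 to 4.16) and Ldha (1.92, 1.68 to 2.19), against 21.4% of all genes. Slc2a1 was called lower (0.0946, 0.0318 to 0.193), against 40.5%. In the GM-conditioned library 4 of 10 were higher, Hk3 (2.27, 1.97 to 2.64), Tpi1 (2.25, 1.82 to 2.82), Gapdh (1.67, 1.6 to 1.75) and Pgk1 (3.29, 2.19 to 5.31), against 21.3%. Slc2a1 was again lower (0.272, 0.192 to 0.379), against 41.1%. Hk3 and Ldha were called in 1 library each, a difference that was not tested. With thinned cells 2 genes were called higher in the steady state. The 9 neutrophil genes take a large part of all UMIs in neutrophils, and the median ratio of all genes was 0.792 and 0.775. Counted per cell, 8 and 9 of the genes were called higher, with 82% and 86.3% of all genes higher and 5.53% and 3.29% lower, and in the GM-conditioned library Slc2a1 then lay above 1.

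**Figure D5:**
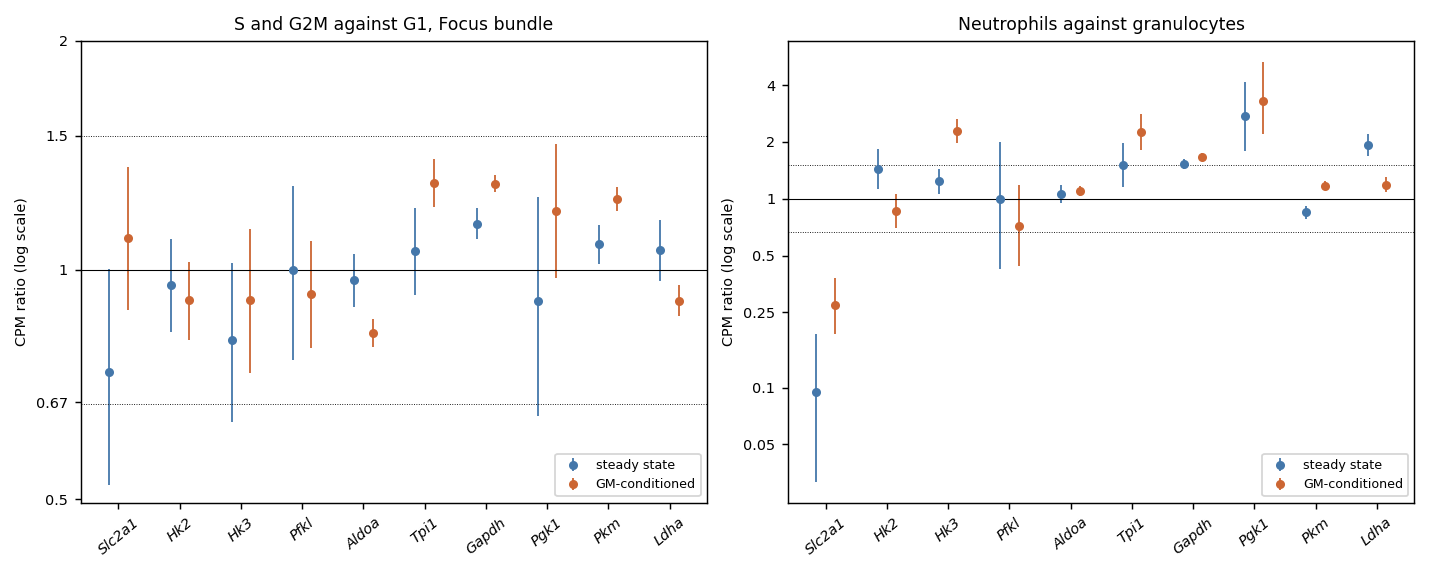
CPM ratio of each gene (log scale) for S and G2M against G1 cells among MoMacDC cells (the Focus bundle) and for neutrophils against granulocytes, steady state in blue and GM-conditioned in orange, with intervals for counting error and dotted lines at 1.5 and its inverse. No point passes the dotted lines for phase, while for neutrophils Slc2a1 lies below and Pgk1 above them in both libraries.

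The surrounding pathways were read from 61 other genes of glucose metabolism. Their counts in MoMacDC cells stand against 16.3% of all genes called higher in the GM-conditioned library and 18.8% lower, and nothing particular to a list is read from them. In MoMacDC cells 2 of 7 pentose phosphate genes were called higher in the GM-conditioned library and none lower, the lactonase Pgls at 154 and 252 CPM (ratio 1.64) and the transketolase Tkt at 470 and 716 CPM (1.52). Of 7 genes tested for pyruvate entry into mitochondria, the pyruvate carrier Mpc1 (1.58) and the kinase Pdk3, which restrains pyruvate dehydrogenase (1.9), were higher and none lower. Of 4 genes of lactate export 2 were lower, Slc16a3, the gene of the exporter MCT4 (91.9 and 47.1 CPM, 0.513), and Slc16a7 (0.518). Of 10 other glycolytic enzymes tested, Aldoc (1.87 and 24.1 CPM, 12.7, 8.82 to 19.5) and Pfkp were higher, and Pfkm, Eno3 (109 and 9.56 CPM, 0.0875) and Ldhb were lower. Of 4 other transporters tested, Slc2a8 was higher and Slc2a3, Slc2a6 and Slc2a9 lower. On the list of PFK-2 regulators 4 genes were tested, and Pfkfb4 was lower. Among 7 genes of the hypoxia and Myc axis, Myc (5.28 and 15.3 CPM, 2.88) and Vhl were higher and Vegfa lower.

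In granulocytes, where 19.8% of all genes were called higher and 8.58% lower, both other transporters tested, Slc2a3 (0.476) and Slc2a6 (0.6), were called lower in the GM-conditioned library. So were Slc16a3 (443 and 193 CPM, 0.436), Eno1 (0.619), Hif1a (132 and 53.9 CPM, 0.41), Egln3 and Vegfa. Gpi1, the isomerase that follows hexokinase (392 and 656 CPM, 1.68), Mpc1 (493 and 903 CPM, 1.83), Pdha1, Pgls, Tkt and Rpe were higher. Between neutrophils and granulocytes, 5 of 7 pentose phosphate genes were called higher in neutrophils of both libraries, Pgls, Tkt, Rpe, Rpia and G6pdx, and Taldo1 lower, against 21.4% and 21.3% of all genes higher and 40.5% and 41.1% lower. Counted per cell, 82% and 86.3% of all genes were higher in neutrophils. Tkt had ratios of 4.16 (3.84 to 4.51) and 3.05 (2.87 to 3.24). Hk1, Gpi1, Pgam1, Mpc2, Pdhb and Pdk3 were higher in both libraries. Pfkp, Slc2a6, Slc16a3, Pfkfb4, Mpc1, Hif1a and Bnip3 were lower in both.

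Across 37 groups of at least 50 cells (labels and clusters of each library, which share cells and libraries), the level of Pkm ran closest among the members to that of Gapdh (Pearson r = 0.807 of log2 CPM with 10 CPM added) and Aldoa (0.8), as a description without a test. Pfkl and Hk3 ran against each other (-0.666). Among 8048 genes with at least 500 UMIs, those most like Hk3 were Clec5a (0.945), Alas1 (0.941) and Fpr2 (0.936), and those most like Pkm were Pgd (0.898), Svip (0.897) and Pygl (0.882). Aldoa ran with Aldh3b1 (0.883), Ltb4r1 (0.86) and Pgd (0.854), and Gapdh with Atxn10 (0.854), Pgam1 (0.839) and Arpc3 (0.817). Slc2a1 ran with Adipor2 (0.851), Vmp1 (0.824) and Klhl2 (0.821), Hk2 with Parp8 (0.827), Gpr141 (0.823) and Rin2 (0.822), and Pfkl with Ryr1 (0.827), Abhd12 (0.805) and Cd48 (0.804). The nearest genes to Tpi1 were Gpaa1 (0.853), Ap1s1 (0.808) and Dap (0.8), to Pgk1 2410016O06Rik (0.75), Peli2 (0.714) and Arhgdib (0.708), and to Ldha Mapk13 (0.793), Arl2bp (0.789) and Lta4h (0.776).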

How the data were processed

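The deposited files hold raw UMI counts per gene and cell, which the authors made with Cell Ranger 3.0.2 on mm10 from 10x 3' libraries, after dropping cells under 200 or over 5000 genes or above 15% mitochondrial UMIs. Versions follow the submitters' processing notes, which also name Seurat 3.6.0, and the annotation release is not given in the sources used here. Cell type, cluster, Subset and Phase labels were used as deposited by the authors. The antibody tag tables were not used. The members and gene lists were chosen with earlier results of these data known.

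The level of a gene is its UMI sum in a group as a part of all UMIs there (CPM). Ratios have exact intervals from the binomial share of counts, and shares have exact Clopper-Pearson intervals, at 95%. A call needed a ratio of 1.5 either way, 0.5 counts added to each group, and 50 UMIs over both groups, across all genes. Cells are not replicates, so no significance test was run. Doublets were kept. Scrublet (scanpy 1.11.5) called 141 steady-state and 186 GM-conditioned cells, which were left out in an alternative. Other alternatives were thinning to 1000 UMIs, counts per cell, equal weight of cells, other limits and other totals. The text names all 10 members, genes of the pathway lists past the limit (values for at most 4 per list), Slc2a3, Hk1, Pfkp, Ldhb, Eno1, Pgam1 and Gpi1, and the 3 genes most like each member. Python 3.11.15, numpy 2.4.6, pandas 2.3.3, scipy 1.17.1 and matplotlib 3.10.9 were used. Promoters are from RefSeq (GRCm38.p6) and pseudogene names from the GENCODE annotation of GRCm38.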

Additional observations from a re-analysis of the deposited data

Results flagged for a closer look

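Pkm lay on opposite sides of 1 between neutrophils and granulocytes in the 2 libraries. In the steady state neutrophils had 654 and granulocytes 774 CPM, a ratio of 0.846 (0.778 to 0.918). In the GM-conditioned library it was at 905 and 771 CPM, a ratio of 1.17 (1.11 to 1.24). Both intervals leave out 1 and cover counting error only. With 1 library per condition the difference between the ratios was not tested.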

How the results depend on the processing

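No paired analysis was possible because each condition was 1 library and the labels give replicate number 1 only. Counts of the 10 genes called were recomputed under 220 alternatives, of which 162 stayed within 1.5 times and 58 moved; the cause was not tested except where fewer UMIs or genes were left by construction. With each cell thinned to 1000 UMIs, the genes called between the libraries were 0 lower in P-I cells and 1 higher and 0 lower in neutrophils. Thinning also gave 0 lower in P-IV against P-III, 1 higher in GM-conditioned S and G2M cells, 1 lower in clusters 7 and 8, 0 higher and 2 lower in cluster 4 and 2 higher in steady-state neutrophils against granulocytes. On the log2 scale, thinning turned the direction of Slc2a1 between the libraries in neutrophils (-0.39), of Hk3 in P-I cells (0.73) and of Pgk1 in P-III against P-I (0.56). Counted per cell, the direction of Slc2a1 in GM-conditioned neutrophils against granulocytes turned (0.16).

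Counted per cell, the genes called between the libraries were 0 higher and 4 lower in granulocytes, 0 and 2 in neutrophils and 1 and 1 in P-I cells. They were 4 lower in P-III against P-I, 0 lower in P-IV against P-III, 3 higher for phase in the GM-conditioned library, 6 higher in clusters 7 and 8, 0 higher and 8 lower in cluster 4, and, in neutrophils against granulocytes, 8 higher in the steady state and 9 higher and 0 lower in the GM-conditioned library. With every cell weighted equally the counts were 0 lower between the libraries in neutrophils, 0 lower in P-III against P-I, 2 higher in clusters 7 and 8 and 2 lower in GM-conditioned neutrophils against granulocytes. At a threshold of 2-fold they were 0 higher and 0 lower in granulocytes, 0 and 0 in neutrophils, 0 and 0 in P-I cells and 0 and 1 in MoMacDC cells, and 0 lower in P-III against P-I, 0 lower in P-IV against P-III, 0 higher in clusters 7 and 8, 0 and 0 in cluster 4 and 1 higher in steady-state neutrophils against granulocytes.

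With a minimum of 20 UMIs, 2 genes were higher in P-III against P-I and 2 lower in P-IV against P-III. With a minimum of 200 UMIs, 0 were lower in P-I cells and 1 higher in neutrophils between the libraries, 0 and 0 lower in P-III and P-IV, 0 and 0 higher and lower in cluster 4, and 0 lower in GM-conditioned neutrophils against granulocytes. Without cells called doublets, 0 were lower in P-I cells and 0 in P-III against P-I. In MoMacDC cells 2 were higher once mitochondrial and ribosomal protein genes were left out of the total, and 2 by the median ratio within clusters. Among alternatives chosen after seeing the data, G1 cells alone gave 0 lower in P-III against P-I and 0 in P-IV against P-III. Leaving out clusters 11, 14 and 15 gave 0 lower in P-I cells between the libraries and 0 lower in P-III against P-I, and moved no such count in MoMacDC cells or for phase. Leaving out cluster 10 or granulocytes under 1000 UMIs moved no count of called genes. Of 693 recomputed single values, 523 moved by less than their counting interval, 166 moved by more and 4 turned direction.

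The sparse genes Slc2a1, Pfkl and Pgk1 limit what these libraries show: each had under 1200 UMIs in all, and a call such as Slc2a1 in neutrophils rests on 6 steady-state UMIs. All intervals cover counting error within 1 library, so no value separates an effect of GM-CSF from variation between animals or preparations.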

Other observations

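In P-I cells, which are part of the MoMacDC cells, some of the same genes of regulators and side branches were called. Mpc1 (ratio 1.56, 1.3 to 1.88), Pdk3 (2.2, 1.46 to 3.47), Pgls (1.64, 1.37 to 1.96) and Tkt (1.55, 1.41 to 1.72) were called higher in the GM-conditioned library, and Slc16a3 (0.494, 0.361 to 0.668), Slc2a6 (0.493, 0.285 to 0.827), Eno3, Ldhb and Rpe were called lower. Pck2, the mitochondrial enzyme that makes phosphoenolpyruvate in gluconeogenesis, was called higher, at 17.4 and 32.3 CPM (1.83, 1.06 to 3.36). Rpe and Pck2 were not called in the MoMacDC cells as a whole. Over all genes 12.2% were called higher and 19.1% lower in P-I cells, and nothing particular to a list is read from these calls.

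Steady-state cluster 4, with non-classical monocyte genes, differed from cluster 5 in several genes that handle pyruvate and lactate. Slc16a3 (2.14, 1.83 to 2.49), Pdk1 (2.79, 1.75 to 4.6) and Pdha1 (1.64, 1.37 to 1.95) were higher, and Mpc1 was lower, at 45.4 against 189 CPM (0.241, 0.19 to 0.3). Pdk3 was lower too, so of 6 genes tested for pyruvate entry 2 were called higher and 2 lower. Slc2a6 and Pck2 were also higher, and Hk1 and Pgls lower. Over all genes 16% were called higher and 12.7% lower, and nothing particular to a list is read from these calls. Eno3, which also stands on the list of non-classical monocyte genes, was at 474 against 34.3 CPM, and Ldhb at 5.16 against 29 CPM.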
